A study of Mus musculus with 13 samples.

Results

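In the acute myeloid leukaemia (AML) line 961C, 715 of the 17696 listed H3K4me3 peaks were at least 3000 bp wide and shared no base with a listed peak of the fusion protein NUP98-PHF23 (NP23). They are called broad unbound peaks here. Another 180 peaks of that width held NP23 and serve as reference only. The peaks were chosen by their measured width in 961C and by the NP23 list, so both are given as description. Most broad unbound peaks carried H3K4me3 in the other lines too, and 53 were met in no other line. The summed width of the touching peaks had a median of 78.9% to 85.5% of the 961C width.

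H3K4me3 is trimethylation of lysine 4 of histone H3, a mark of active promoters. It usually forms a short block around a transcription start, and in many cell types a minority of promoters carries much wider blocks, often at genes tied to the identity of the cell. H3K27me3 is the repressive mark that Polycomb complexes deposit. NP23 joins the nuclear pore protein NUP98 to the PHD finger of PHF23, a fold that can bind H3K4me3.

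All 4 lines were cytokine-independent mouse leukaemia lines. 961C is an NP23 AML line, and 748T and 106A are NP23 pre-T LBL lines from other mice, all on C57BL/6. The control, 7298-2, is a pre-T LBL line carrying SCL-LMO1 on a C57BL/6 and C3H hybrid background, so oncogene and strain cannot be told apart in it. Each line is a single culture-derived line with 1 library per mark, NP23 was mapped by its V5 tag in 961C alone, and no source used here gives the promoters that drive the transgenes. With 1 library per line no test between lines was made. Peaks of a library are not replicates, so differences between peak classes were not tested either. Intervals below are exact (Clopper-Pearson, or order statistics for a median) at 95% and cover counting error over peaks only. Coordinates are mm9, and the genes at them were not analysed here, so the lineage of the lines was not checked against marker genes. The lists hold no read totals, so depth is unknown. The H3K4me3 peaks of 961C were lower (median maximum 38 reads) than those of the pre-T lines (76 to 97 reads). A peak can go unlisted for lack of depth: the NP23 list holds 1629 peaks with a median maximum of 13 reads, and "unbound" means only that no peak was listed.

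The broad unbound peaks were mostly just above the width limit. Their median width was 3511 bp (quartiles 3208.5 to 3971 bp), the widest reached 9177 bp, and 543 of 715 lay between 3 and 4 kb. The reference peaks with NP23 had a median width of 4944 bp. Unbound peaks made up 91.7% of all 961C peaks of 3 to 4 kb, 73.8% at 4 to 5 kb, 50.7% at 5 to 6 kb, 33.3% at 6 to 8 kb and 3.33% (1 of 30) at 8 kb or more. Just inside the limit were peaks of 3001 bp (chromosome 1, 40571497 to 40574497) and 3002 bp (chromosome 2, 126314534 to 126317535). Just outside were unbound peaks of 2999 and 2998 bp on chromosomes 12 and 19. On the side of NP23, the reference peak that shared the fewest bases with it (chromosome 17, 35137648 to 35140679) shared 92 bp. A broad unbound peak ended a short way before that one, at 35137243 on the same chromosome, 2416 bp from the nearest NP23 peak.

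The absence of NP23 is part of the choice, and its distance is given as description. The median gap from a broad unbound peak to the nearest NP23 peak was 661386 bp (quartiles 272941 to 1504780 bp, 714 peaks with NP23 on their chromosome). Of them, 6 lay within 5 kb and 80 (11.2%, 8.97 to 13.7) within 100 kb (100000 bp). Unbound peaks of 2 to 3 kb had a median gap of 776311 bp and 10.0% within that distance, and all unbound peaks of 961C 713496 bp and 10.6%. The nearest, on chromosome 8 from 74114207 to 74118098, was 216 bp away.

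Among broad unbound peaks, height changed little with width. The median was lower in unbound peaks of 2 to 3 kb, at 70 reads, and over the whole 961C list, at 38 reads. Broad unbound peaks reached a median maximum of 75 reads (quartiles 64 to 85, range 20 to 127), above 85.0% of the 961C list. By width class the medians were 75 reads at 3 to 4 kb, 74.5 at 4 to 5 kb, 72 at 5 to 6 kb and 77 at 6 to 8 kb, with 71 in the single peak above. Peaks with NP23 gave 77, 77.5, 74.5, 78.5 and 88 reads in the same classes. The mean height of a broad unbound peak was a median 35.1% of its own maximum, against 33.8% with NP23 and 36.6% in unbound peaks of 2 to 3 kb. Height comes from the library that chose the peaks and is a description. The second track of the list, read as background, had a median mean of 0.326 reads over broad unbound peaks and 0.311 with NP23.

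**Figure D1:**
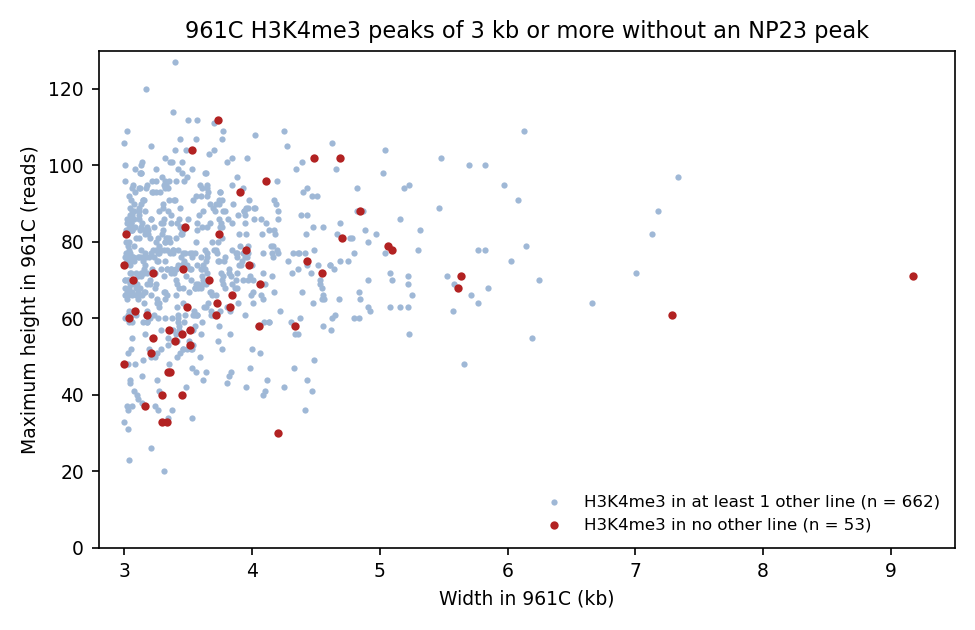
Each point is one of the 715 broad unbound peaks, with its width in 961C in kb on the x axis and its maximum height in reads on the y axis. Red points are the 53 peaks with no H3K4me3 in another line, which lie across the whole range of widths and include the widest peak (9177 bp).

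At these sites the 3 pre-T lines mostly carried H3K4me3 as well. A peak was listed in 748T at 649 of 715 (90.8%, interval 88.4 to 92.8), in 106A at 627 (87.7%, 85.1 to 90.0) and in 7298-2 at 635 (88.8%, 86.3 to 91.0). The 66, 88 and 80 sites without one made up 9.23%, 12.3% and 11.2%, where 29.4%, 33.2% and 31.4% of all 961C peaks had none. Unbound peaks of 2 to 3 kb lacked it in 6.98%, 9.52% and 8.79%, and peaks of 3 kb or more with NP23 in 8.89%, 11.1% and 12.2%. Presence in the pre-T lines was thus close to that of either neighbouring class, and the control fell between the 2 fusion-carrying pre-T lines.

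In all, 609 broad unbound peaks (85.2%, 82.4 to 87.7) were met in all 3 other lines, against 62% of all 961C peaks, and 53 (7.41%, 5.60 to 9.58) in none, against 25.1%. Mixed patterns were few. The most frequent were 16 peaks (2.24%) met in 748T and 7298-2, 14 (1.96%) in both NP23 pre-T lines but not the control, and 10 (1.40%) in 748T alone. Over all 961C peaks these patterns were no rarer, at 3.33%, 2.56% and 2.69%. With NP23, 156 of 180 peaks (86.7%) were met in all 3 lines and 15 (8.33%, 4.74 to 13.4) in none.

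**Figure D2:**
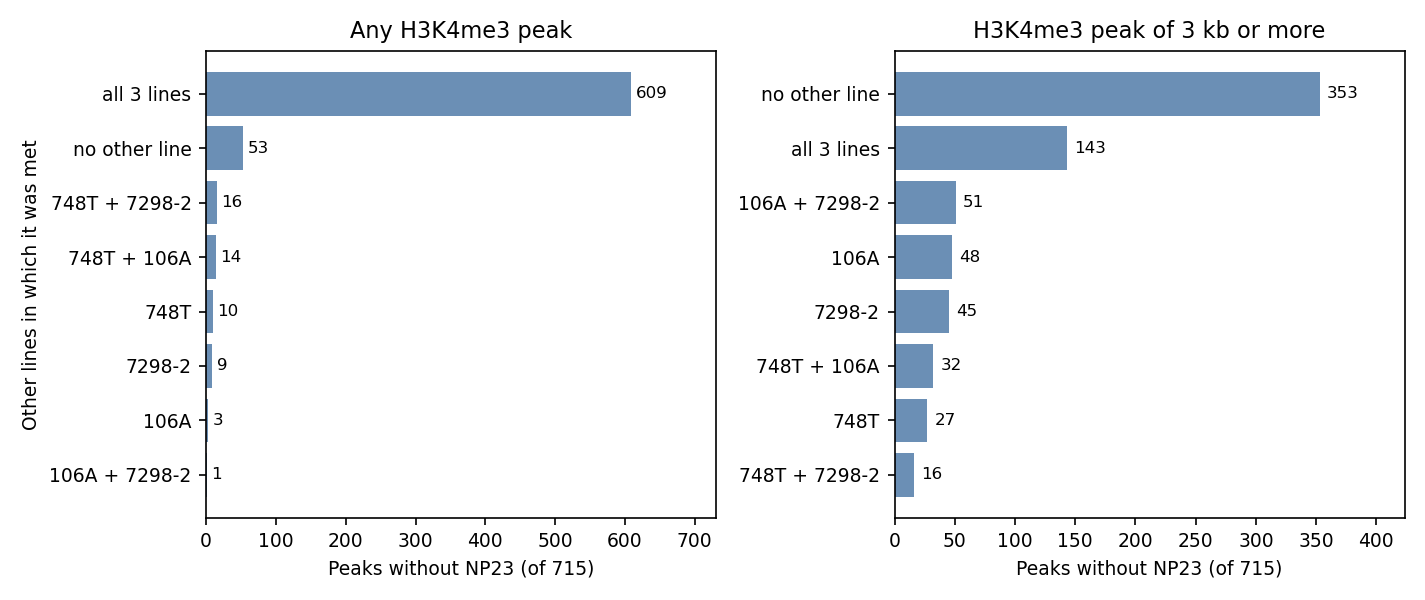
Bars count the 715 broad unbound peaks by the set of other lines in which they met any H3K4me3 peak (left) or an H3K4me3 peak of 3 kb or more (right). At left 609 peaks fall under all 3 lines. At right the largest bar, 353 (49.4%, against 90.5% of all 961C peaks), is for no other line.

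The other lines were usually narrower at these sites, which were chosen for being wide in 961C. The widths of all peaks of a line that touch the 961C peak were summed and set against the 961C width. The sum had a median of 2766 bp in 748T, 2995 bp in 106A and 2870 bp in 7298-2. As a share of the 961C width the medians were 78.9% (interval 76.5 to 81.1), 85.5% (83.3 to 87.4) and 81.9% (80.3 to 83.5). The NP23 pre-T lines thus averaged 82.2% ± 4.66 (SD, n = 2), and the control lay within that spread. More than 1 peak was needed to make up the sum at 193, 200 and 158 of the 715 sites (26.99%, 27.97% and 22.1%). Over all 961C peaks, most of them much narrower, the shares were 6.20%, 7.27% and 5.68%. Unbound peaks of 2 to 3 kb gave 15.4%, 18.9% and 15.9%. Peaks with NP23 gave 33.3%, 33.3% and 18.3%, above the broad unbound peaks in 748T and 106A and below them in 7298-2. These shares were not matched for width.

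Sites at 50% of the 961C width or less numbered 130 in 748T (18.2%, 15.4 to 21.2), 138 in 106A (19.3%, 16.5 to 22.4) and 128 in 7298-2 (17.9%, 15.2 to 20.9). Over all 961C peaks the same call covered 32.9%, 35.6% and 33.9%, shares that include the many short peaks with no partner. The neighbouring classes lay on either side, with 11.7%, 12.5% and 12.5% for unbound peaks of 2 to 3 kb and 42.2%, 35.6% and 40.6% for peaks with NP23. Those with NP23 are wider in 961C, at a median of 4944 bp against 3511 bp, and these shares were not matched for width. At 3 to 4 kb the call covered 87, 95 and 88 of 543 unbound peaks, and 11, 8 and 7 of 49 with NP23. In 97 of the 715 (13.6%) the call held in all 3 lines, against 27.4% of all 961C peaks, 8.36% of unbound peaks of 2 to 3 kb and 31.1% of peaks with NP23. Sites at 150% or more numbered 8, 16 and 14 (1.12%, 2.24% and 1.96%), against 16.4%, 18.3% and 18.5% of all 961C peaks, most of which are narrow to begin with.

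A block of 3 kb in 961C was often shorter than that elsewhere. A peak of 3 kb or more was met in 748T at 218 sites (30.5%), in 106A at 274 (38.3%) and in 7298-2 at 255 (35.7%), where 4.27%, 6.82% and 5.48% of all 961C peaks met one. The lists of these lines hold 616, 991 and 803 peaks of that width, and the order of the lines follows these totals. In 143 sites (20.0%) all 3 lines had such a peak, against 2.43% of all 961C peaks. In 353 (49.4%) none had, against 90.5% of all 961C peaks, 87.2% of unbound peaks of 2 to 3 kb and 47.2% of peaks with NP23. Peaks were chosen for being wide in 961C, and a choice made in another line gave values below 100% in 961C as well. At the 545, 898 and 721 peaks of 3 kb or more of 748T, 106A and 7298-2 that lack NP23 of 961C, H3K4me3 of 961C summed to a median of 84.6%, 73.0% and 77.5% of the width. Between pre-T lines the same measure ran from 84.4% to 101.7%.

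Beside the peaks with NP23 of the same width class, the shares lay close at 3 to 4 kb and apart from 4 to 8 kb. Over all widths the broad unbound peaks had the higher share of their width in the other lines, by 20.6, 18.6 and 20.7 percentage points in 748T, 106A and 7298-2, but they are also narrower in 961C, the width the share is taken of. The summed widths themselves were about equal, with medians of 2841.5, 3126.5 and 2845.5 bp with NP23 against 2766, 2995 and 2870 bp without. Peaks with NP23 also met a peak of 3 kb or more in a larger share, 36.1%, 44.4% and 41.7% in the same order, and in all 3 lines at 30.0% of sites against 20.0%. At 3 to 4 kb, with 543 unbound and 49 bound peaks, the medians were 79.6% and 79.7% in 748T, 86.2% and 83.5% in 106A, and 82.4% and 79.0% in 7298-2. At 4 to 5 kb (124 and 44 peaks) they were 75.4% and 61.2%, 82.9% and 71.6%, and 80.6% and 62.9%. At 5 to 6 kb (35 and 34 peaks) they were 67.2% and 48.4%, 71.5% and 58.7%, and 71.3% and 46.9%. At 6 to 8 kb (12 and 24 peaks) they were 87.5% and 51.4%, 88.7% and 63.1%, and 94.6% and 48.4%. Unbound peaks of these 3 classes were thus higher in every line, the control included, while quartiles of the classes overlapped and the difference was not tested. In 106A the lower quartile of the 12 unbound peaks of 6 to 8 kb was 0, against 35.6% with NP23. No such reading is possible at 8 kb or more, where the single unbound peak was at 0 in each line.

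**Figure D3:**
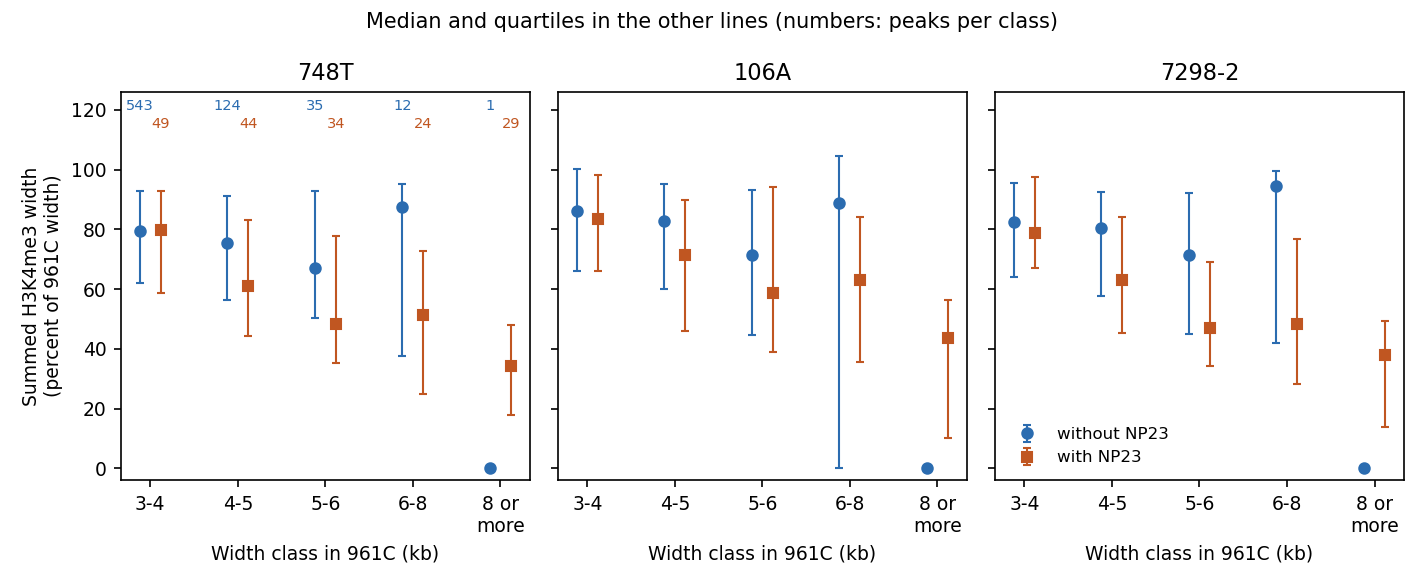
Summed H3K4me3 width in each other line, in percent of the 961C width (y axis), by width class of the 961C peak in kb (x axis), as medians with quartile bars for peaks without NP23 (circles) and with NP23 (squares). The symbols lie close together at 3 to 4 kb, and from 4 to 8 kb the circles are higher in all 3 lines, with overlapping quartiles.

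The 10 widest broad unbound peaks fell into kinds that the medians hide. The widest, on chromosome 5 from 143576293 to 143585469 (9177 bp, 71 reads), had no H3K4me3 peak in any other line, and the nearest NP23 peak was 418622 bp away. The next, on chromosome 8 from 87224920 to 87232250 (7331 bp, 97 reads), had 2311 bp in 748T and none in 106A or 7298-2. On chromosome 18 from 55145203 to 55152490 (7288 bp, 61 reads) no other line had a peak. These 3 were thus wholly or nearly private to the AML line.

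The fourth, on chromosome 7 from 4604123 to 4611302 (7180 bp, 88 reads), measured 6673 bp in 748T, 6242 bp in 106A and 7144 bp in 7298-2. The seventh, on chromosome 11 from 11586138 to 11592799 (6662 bp, 64 reads), was wider in every pre-T line, with 7133, 9928 and 10106 bp in the same order. The eighth, on chromosome 17 from 71196591 to 71202838 (6248 bp, 70 reads), measured 6109, 7224 and 5956 bp. The tenth, on chromosome 15 from 61815156 to 61821299 (6144 bp, 79 reads), measured 5808, 6044 and 6130 bp. These 4 were broad in all lines.

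The rest, like the second, differed among the pre-T lines. The fifth, on chromosome 5 from 100995313 to 101002441 (7129 bp, 82 reads), was met only in the control, with a summed width of 3695 bp. The sixth, on chromosome 1 from 92948050 to 92955054 (7005 bp, 72 reads), measured 5287 bp in 748T, 2226 bp in 106A and 1746 bp in 7298-2. The ninth, on chromosome 10 from 61966007 to 61972194 (6188 bp, 55 reads), measured 2450 bp in 748T and 2942 bp in 7298-2 and was missing in 106A. Of the 10, only the fifth had both NP23 pre-T lines at 0 and the control not.

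**Figure D4:**
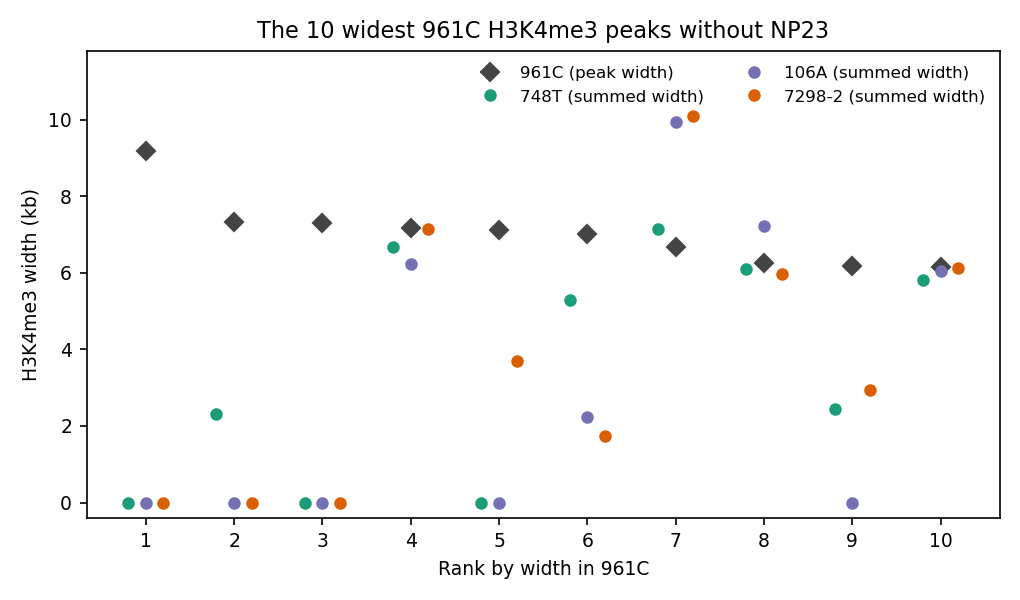
H3K4me3 width in kb (y axis) at the 10 widest broad unbound peaks, ranked by their width in 961C (x axis), with the 961C peak as a diamond and the summed width of each other line as a circle. Ranks 4, 7, 8 and 10 have summed widths of 5808 bp or more in every line, and ranks 1 and 3 are at 0 in the 3 other lines.

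The tallest broad unbound peaks, like the class as a whole, were mostly met in every line. The tallest, on chromosome 12 from 8504862 to 8508260, reached 127 reads over 3399 bp in 961C. It was an exception, with 535 bp and 25 reads in 748T, 546 bp and 25 reads in 7298-2, and no peak in 106A. The next, on chromosome 9 from 36573587 to 36576758, reached 120 reads in 961C and 162, 166 and 135 reads in 748T, 106A and 7298-2. Of the 10 tallest, 8 were met in all 3 lines, with summed widths of 66.5% to 107.2% of the 961C width. Of all broad unbound peaks, 85.2% were met in all 3 lines, so the tallest did not stand out in this.

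The remaining exception was on chromosome 5 from 114246879 to 114250612 (3734 bp, 112 reads), which no other line had. Another of the 10 tallest lay 22913 bp from it, from 114220264 to 114223965 (3702 bp, 111 reads). That one was met at 2819, 3212 and 3023 bp in 748T, 106A and 7298-2. On chromosome 8, the 6126-bp peak from 87183828 to 87189953 (109 reads) was met in all lines, with summed widths of 93.0% to 101.8% of its own. It lay 34966 bp from the second widest peak, which 106A and 7298-2 lacked. Of the 39 pairs of broad unbound peaks within 50 kb of each other, 8 differed in this way, by the number of pre-T lines that met them. No count for pairs of other peaks is given beside it. Heights are not scaled to depth, so these reads are not compared across lines.

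The 53 peaks private to 961C were about as wide as the rest and somewhat lower. Their median width was 3664 bp and their median maximum 66 reads (range 30 to 112), against 3503 bp and 75 reads for the 662 met elsewhere. Their second-track mean was also higher, with a median of 0.404 reads against 0.320, and its part in these calls was not tested. After the 2 private peaks already described, on chromosomes 5 and 18, the widest were on chromosome 2 from 44963158 to 44968794 (5637 bp), chromosome 5 from 139879429 to 139885041 (5613 bp), chromosome 1 from 196764652 to 196769743 (5092 bp) and chromosome 5 from 121568981 to 121574046 (5066 bp). Next came a close pair on chromosome 2, from 148229801 to 148234642 (4842 bp, 88 reads) and from 148265172 to 148269872 (4701 bp, 81 reads). The last of the 10 widest were on chromosome 7 from 35902906 to 35907591 (4686 bp, 102 reads) and chromosome 10 from 111430171 to 111434721 (4551 bp, 72 reads). Of these 10, only the peak on chromosome 10 had NP23 within 100 kb, at 53929 bp.

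At the opposite end, a few sites were far wider in the pre-T lines. On chromosome 5 from 66254322 to 66257990, a 3669-bp peak of 961C faced single peaks of 9820 bp in 748T, 12274 bp in 106A and 11079 bp in 7298-2. On chromosome 15 from 6529129 to 6532443 the 961C peak was the lowest of all 715, with 20 reads over 3315 bp, and the other lines had 8689, 7930 and 9285 bp with 140, 125 and 121 reads. The remaining 3 of the 5 highest lay on chromosome 4 at 133310151, chromosome 1 at 107887598 and chromosome 15 at 96114190. Their summed widths ran from 145.3% of the 961C width in 748T to 255.2% in 106A, and all 3 pre-T lines were above 961C at each.

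Among sites met in all 3 lines, the strongest narrowing was on chromosome 9 from 63458535 to 63461567, where 3033 bp in 961C met 316, 362 and 1069 bp in 748T, 106A and 7298-2. On chromosome 4 from 149075000 to 149078735 the control kept more of the block, with 2314 bp of 3736 bp, than 748T (341 bp) and 106A (344 bp). On chromosome 6 from 125095017 to 125100055, a tall block of 5039 bp and 104 reads, the lines had 1671, 1319 and 1194 bp. The last 2 of the 5 lay on chromosome 12 at 80078064 and chromosome 9 at 44110266, with 8.75% to 31.7% of the 961C width.

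H3K27me3 was nearly absent from the broad unbound peaks. In 961C itself 2 of 715 met an H3K27me3 peak (0.280%, 0.0339 to 1.01), against 2.16% of all 961C H3K4me3 peaks. The nearest classes were about as low, at 0.517% for unbound peaks of 2 to 3 kb and 0.556% for peaks with NP23. Both sites were low for their class, one on chromosome 17 from 46166410 to 46169667 with 44 reads and the other on chromosome 2 from 56966876 to 56970018 with 38 reads. The H3K27me3 peaks there were 373 and 278 bp wide, reached 9 and 11 reads and sat just inside or across the left edge of the block. At both sites the 3 pre-T lines had full-width H3K4me3, from 102.0% to 125.5% of the 961C width.

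In the other lines H3K27me3 met 11 of the 715 in 748T (1.54%, 0.770 to 2.74), 8 in 106A (1.12%, 0.484 to 2.19) and 2 in 7298-2 (0.280%, 0.0339 to 1.01). The same shares over all 961C peaks, most of them much narrower, were 0.537%, 0.311% and 0.113%. Unbound peaks of 2 to 3 kb gave 0.646%, 0.603% and 0.215%. Peaks of 3 kb or more with NP23 gave 1.67%, 1.11% and 0.556%, so the broad unbound peaks did not stand out from them. Together 19 sites met it in at least 1 pre-T line. The H3K27me3 peaks at the 715 sites, 32 in all over the 4 lines, were short and low, with a median width of 251 bp and a median maximum of 12 reads.

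The share was higher where the line lacked H3K4me3, although 6 of the 11 sites in 748T had H3K4me3 of that line. In 748T, H3K27me3 met 5 of the 66 broad unbound peaks without H3K4me3 of that line (7.58%, 2.51 to 16.8) and 6 of the 649 with it (0.924%, 0.340 to 2.00). In 106A the counts were 6 of 88 (6.82%, 2.54 to 14.3) and 2 of 627 (0.319%, 0.0387 to 1.15), and in 7298-2 they were 2 of 80 (2.50%) and 0 of 635 (upper bound 0.579%). Over all 961C peaks the shares were 0.73% without and 0.456% with H3K4me3 of 748T, 0.648% and 0.144% for 106A, and 0.341% and 0.00824% for 7298-2. The difference between sites with and without H3K4me3 was not tested. Unbound peaks of 2 to 3 kb without H3K4me3 of the line gave 4.32%, 4.52% and 2.45%, and of the peaks with NP23, 1 of 16, 1 of 20 and 0 of 22 did, so nothing here sets the broad unbound peaks apart from those classes.

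**Figure D5:**
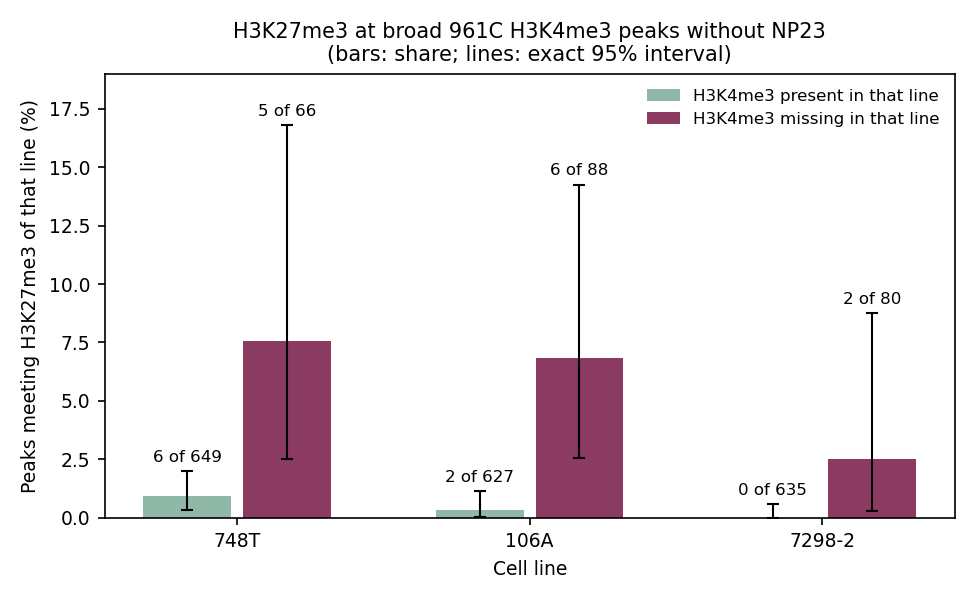
Share of broad unbound peaks that meet an H3K27me3 peak of each line (y axis, percent), by whether that line has H3K4me3 at the site, with exact 95% intervals. The bars for missing H3K4me3 reach 7.58% in 748T, 6.82% in 106A and 2.50% in 7298-2, and those for present H3K4me3 stay at or below 0.924%.

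Of the 53 private peaks, 9 (17.0%, 8.07 to 29.8) met H3K27me3 in at least 1 pre-T line, against 1.53% of all 961C peaks that no other line shares. For broad unbound peaks met in all 3 lines it was 4 of 609 (0.657%). The 53 had a median width of 3664 bp, against 1033 bp over all 961C peaks. A wider peak has more bases that can meet another, and the share of 1.53% was not matched for width. No share is given for private peaks of the neighbouring classes. On chromosome 2 from 44963158 to 44968794, a 5637-bp block with 71 reads in 961C, 106A had 3 H3K27me3 peaks of 138 to 239 bp and no H3K4me3. On chromosome 16 from 95677416 to 95681255, a 3840-bp block in 961C, 7298-2 had H3K27me3 peaks of 1845 and 387 bp and 106A one of 222 bp. The second track there was high in both lines, with means of 2.09 and 1.84 reads in 7298-2 and 1.31 in 106A, against list medians of 0.405 and 0.494, and its part in these calls was not tested. On chromosome 7 from 142729161 to 142732694, a private block of 3534 bp with 104 reads, 748T had an H3K27me3 peak of 478 bp.

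Both marks of a pre-T line met at the same block in a few places. On chromosome 13 from 22096286 to 22099842 (3557 bp in 961C), 748T had 3 H3K27me3 peaks of 251 to 971 bp and 106A had 2. H3K4me3 of these lines had summed widths of 16.7% and 15.0% of the 961C width. The control had neither mark at this site. On chromosome 18 from 75527022 to 75531153, 748T had H3K27me3 peaks of 533 and 571 bp inside the 961C block and one of 762 bp across its right edge. H3K4me3 of the same line met this block too, with a summed width of 91.2% of that in 961C.

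Broad unbound peaks were spread over the autosomes and the X chromosome, and those with NP23 were not spread in the same way. Per chromosome, leaving out unplaced sequence and the Y chromosome, which held 3 H3K4me3 peaks and no broad one, they made up 2.98% (chromosome 4) to 5.66% (chromosome 1) of the H3K4me3 peaks of 961C. Chromosome 11 held 61 of the 715 (8.53%), close to its 8.04% of all 961C peaks, and 39 of the 180 with NP23 (21.7%). Chromosome 7 held 57 (7.97%) and 2 with NP23 (1.11%), and chromosome 13 held 32 and 2. The X chromosome held 17 and 1, and 1 broad unbound peak lay on unplaced sequence of chromosome 9. The difference between the classes was not tested.

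Some broad unbound peaks came in neighbouring pairs, and 74 of the 715 (10.3%, 8.21 to 12.8) had another within 50 kb. No such share is given for other peaks, so pairing is not read as a trait of this class. Among the 39 pairs so formed, 29 had both peaks met in all 3 pre-T lines and 2 had both met in none. Of single broad unbound peaks, 85.2% were met in all 3 lines. The closest pair, on chromosome 19 from 46112041 to 46115203 and from 46115546 to 46120433, was 342 bp apart, and the next, on chromosome 9 from 114682236 to 114687073 and from 114688070 to 114691841, was 996 bp apart. All 4 peaks were met in all 3 pre-T lines. On chromosome 2 a private peak of 3002 bp (126314534 to 126317535) lay 5602 bp from one of 3553 bp that every line shared.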

How the data were processed

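Of 13 samples, 9 came with a peak list (4 H3K4me3, 4 H3K27me3, 1 V5-NP23), and the 4 inputs were not used here. The submitters' processing notes name CASAVA 1.9, BWA 0.5.9-r26 and build mm9. No source used here gives the caller of the peaks or its settings. Each list deposited by the authors gives start, end and a text field with mean and maximum read pileup of the sample and of a second track, whose meaning is not stated. Starts count from 0 and are printed from 1. The second track is missing in 5 of 109165 rows. Heights are whole-number signal maxima with no visible scaling to depth.

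Groups follow the cell type and antibody in the labels. Peaks overlapped when they shared at least 1 bp. Computations used Python 3.11.15, numpy 2.4.6, pandas 2.3.3 and scipy 1.17.1, and overlap and width sums were tested on simulated data. The peaks and lists were chosen with earlier results of these data known.

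Named regions are the 10 widest, the 10 tallest and the 10 widest private peaks, the 5 highest and 5 lowest by mean width share (lowest among those met in all other lines), those with H3K27me3 of 961C and those next to the width limit. Regions named for H3K27me3 of other lines, for the nearest NP23 peak or as neighbours were chosen after their values were seen. Marker gene lists were drawn up and not used, because the gene and promoter tables at hand are for GRCm38.p6. For the same reason no sequence is printed.

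Alternatives were width limits of 2000 and 4000 bp, NP23 peaks of 500 bp or more only, NP23 within 5 kb, bases inside the 961C peak only, joining within 1 kb, the taller 50% of peaks, 10% overlap, H3K27me3 within 1 kb, autosomes, mean height, and dropping 748T or 106A. Joining the peaks of all 4 lines before the choice was added after seeing the data.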

Additional observations from a re-analysis of the deposited data

How the results depend on the processing

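No paired analysis was possible because no result comes from a test. Values stand in the order 748T, 106A, 7298-2 where 3 are given. With a limit of 2000 bp there were 3036 broad unbound peaks, the width shares were 82.4%, 89.4% and 86.8%, the narrowed sites 13.2%, 14.1% and 13.7%, and the median height 71 reads. With 4000 bp there were 172, met in 87.2%, 83.7% and 84.9%, with width shares of 75.3%, 82.0% and 79.5% and narrowed sites of 25.0%, 25.0% and 23.3%. The difference from peaks with NP23 was 16.4, 14.7 and 18.9 percentage points at 2000 bp, 25.0, 25.7 and 30.3 at 4000 bp, 28.0, 26.9 and 31.8 with NP23 peaks under 500 bp ignored, and 23.0, 21.6 and 24.0 for bases inside the 961C peak. Counting bases inside alone gave width shares of 83.3% in 106A and 80.2% in 7298-2. Joining the other lines' peaks gave 83.0%, 89.9% and 85.0%. The taller 50% of peaks gave 75.4%, 79.6% and 79.2%, with 82.4%, 78.7% and 82.1% of sites met, 24.2%, 26.99% and 23.6% narrowed, and a difference of 22.2 points in 748T. Joining in all 4 lines gave 1207 broad unbound peaks, width shares of 82.2%, 89.4% and 83.6%, and differences of 24.3, 22.5 and 24.6 points. The mean height was 25.8 reads in place of a maximum of 75. With the taller 50% of H3K27me3 peaks, 0 of the 715 met that of 961C. Without each NP23 pre-T line in turn, private peaks numbered 56 to 63, peaks met in all remaining lines 610 to 625, and the pre-T width share was 78.9% to 85.5%. The other 73 of 127 values moved by less than their interval or, for the difference, than the SD between 748T and 106A, or, for counts of peaks, by less than 1.5 times. No difference from peaks with NP23 changed sign over all widths. The sets differ in width in 961C and no alternative matched it, so this says nothing about peaks of like width. At 3 to 4 kb the medians in 748T were 79.6% without and 79.7% with NP23. At 8 kb or more the single unbound peak was at 0, against 34.2%, 43.8% and 37.8%. In the other classes and lines unbound peaks were higher. Values other than these differences are counts, shares, widths or heights, which cannot be negative, so a sign says nothing about them. The cause of these shifts was not tested. Depth is unknown, so an unlisted peak is no proof of absence.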
